A study of Mus musculus with 8 samples.

Results

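Regulators of G-protein signalling (RGS proteins) are described here in mouse heart cells and heart muscle, through 10 genes: Rgs1, Rgs2, Rgs3, Rgs4, Rgs5, Rgs6, Rgs10, Rgs16, Rgs18 and Rgs19. They were chosen by name among 35019 gene names on the array, with their measured levels over the 4 groups already known, so those levels chose them and are given as a description that supports nothing. All 19 probes that carry these names, of 55681 on the array, are accounted for. Gene expression was measured on 8 Agilent arrays of 1 colour, 2 for each of 4 groups, in C57BL/6 mice 8 to 12 weeks old. Both primary groups were sorted as c-kit+ cells grown out of explants of the left atrial appendage, a small pouch of that atrium. CD45- cells (c-kit+/CD45-) came from a strong digestion with 0.25% trypsin and CD45+ cells (c-kit+/CD45+) from a weak one with 0.05% trypsin, each together with 0.1% collagenase D. Passage-8 cells are derivatives of the c-kit+/CD45+ cells at the passage of that number, and biopsied left ventricular wall of mice 12 weeks old was the control. The sort and the digestion changed together between the primary groups, RNA of cells and of ventricle was isolated with different reagents, and the labels do not say whether the replicates of a group came from separate animals, so the spread between the 2 arrays of a group may be technical.

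A receptor coupled to G proteins acts by loading GTP onto a G alpha subunit, which then separates from its beta-gamma partner, and both act on effectors until the GTP is hydrolysed. RGS proteins speed up that hydrolysis and so shorten the signal. Rgs1, Rgs2, Rgs3, Rgs4, Rgs5, Rgs16 and Rgs18 belong to the R4 subfamily, most of them small proteins that act on Gi and Gq subunits (Rgs2 mainly on Gq), Rgs6 to the R7 subfamily, which works as a complex with the beta subunit Gnb5, Rgs10 to the R12 subfamily and Rgs19 to the RZ subfamily. In the heart, Rgs4 and Rgs6 are known for limiting the slowing of the beat through muscarinic receptors and potassium channels, Rgs5 marks pericytes and arterial smooth muscle, and Rgs1, Rgs10 and Rgs18 are best known from blood cells.

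Levels are log2 of the processed signal minus log2 of the 75th percentile of the array, so 0 is the level of a bright spot and 1 unit is a doubling. The 75th percentile lay between 426 and 976 signal units, and 51.5% to 69.9% of the spots of an array were well above background. The widest spread between replicates was that of CD45- cells (SD 0.588 log2 units over the probes measured there), against 0.221 for CD45+ cells, 0.273 in passage-8 cells and 0.400 for left ventricle. Ptprc, which encodes CD45, followed the sort, with 1.98 ± 0.08 (SD, n = 2) in CD45+ cells, -4.43 ± 1.54 in CD45- cells, -2.61 ± 0.40 in left ventricle and -5.37 ± 0.28 in the passage-8 group. Kit, which encodes c-kit, read -3.57 and -3.33 in CD45+ cells, -1.48 and -2.48 in left ventricle and -5.65 and -5.51 in passage-8 cells, and it split the CD45- arrays, at -6.25 on the first, not well above background, and -1.55 on the second. The CD45+ arrays, sorted for c-kit, thus lay below ventricle for Kit, and the CD45- arrays stood on either side of it. Levels of different genes come from different probes and are not set against each other.

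The 10 genes fell into groups by where their signal was high. Rgs1, Rgs18 and Rgs10 were highest in CD45+ cells, and Rgs2 was high in CD45+ cells and left ventricle alike. Rgs16 and Rgs19, like Rgs10, were higher in all 3 cell groups than in left ventricle, and Rgs4 and Rgs5 were high in left ventricle alone. Rgs3 and Rgs6 gave different pictures from different probes. The probe with the highest mean over the 8 arrays, the leading probe of a gene, was well above background on both arrays for 7 of the 10 genes in CD45+ cells, 6 in passage-8 cells, 5 in CD45- cells and 9 in left ventricle.

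**Figure D1:**
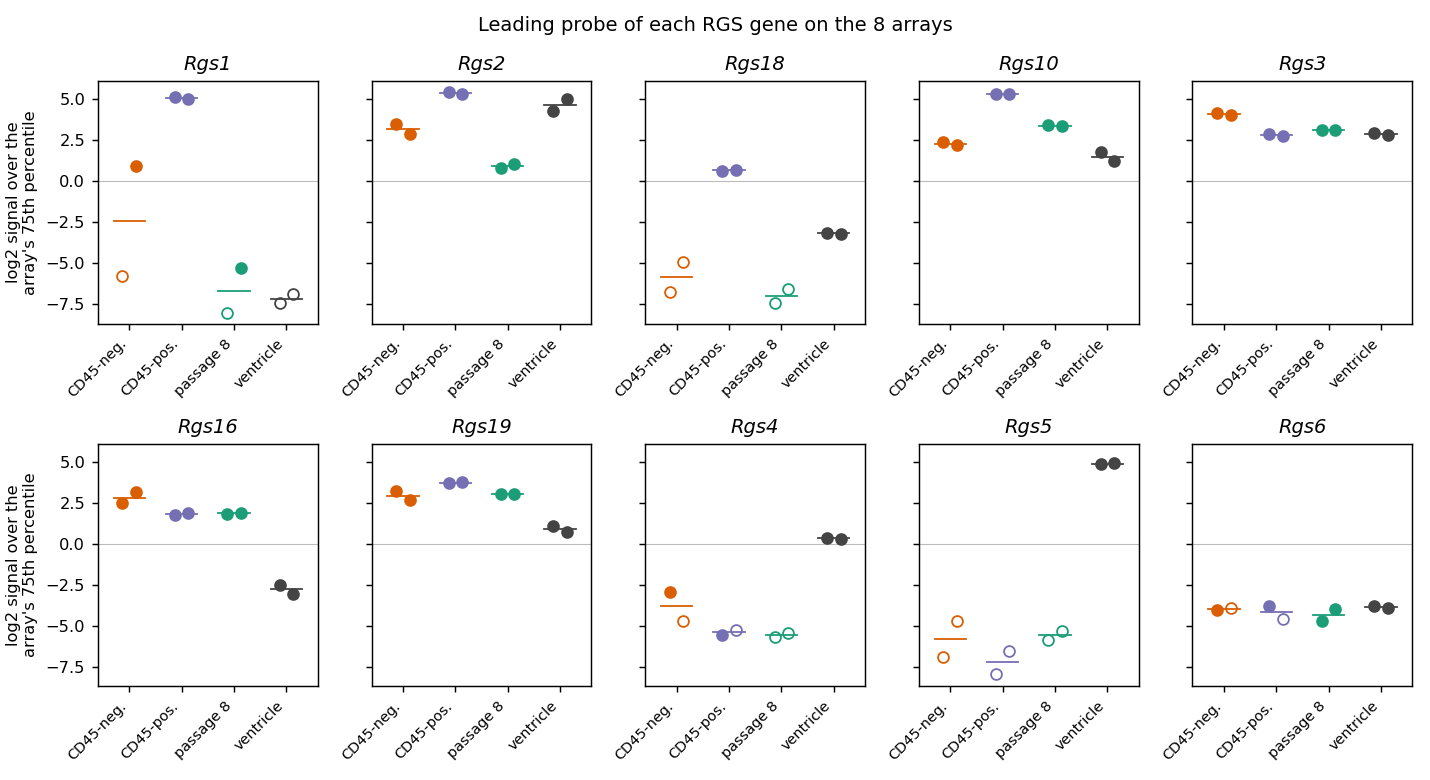
Each panel plots the leading probe of 1 gene, as log2 signal over the 75th percentile of the array, for the 2 arrays of each of the 4 groups (first replicate left, second right). Filled points are well above background, open points are not, and lines are group means. Rgs1, Rgs18 and Rgs10 peak in CD45+ cells, Rgs10, Rgs16 and Rgs19 are lowest in left ventricle, and Rgs4 and Rgs5 stand high in left ventricle alone.

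Rgs1, a GTPase-activating protein for Gi and Gq subunits that is known for damping chemokine responses of leukocytes, read 5.14 and 5.00 in CD45+ cells, -5.74 and 0.92 in CD45- cells, -7.997 and -5.30 in passage-8 cells and -7.41 and -6.88 for left ventricle. Both CD45+ arrays stood above all others, and the CD45- arrays were split, with the first not well above background. The log2 difference of CD45- from CD45+ cells was -7.48 as read (SE 2.11), -10.81 without CD45- replicate 2 and -4.15 without CD45- replicate 1. With the dim array raised to the faintest signal that counts as well above background there, the mean of the 2 CD45- arrays was at least 121-fold lower. That is a bound on the mean and not on each array, since the array well above background gave the -4.15 alone. In left ventricle neither array was well above background, and the CD45+ level was at least 1046-fold higher. For such a bound each dim array takes its own reading or, if higher, the faintest signal that counts there as well above background. Bounds hold for the processed signal: after normexp background correction, which keeps dim probes brighter, the log2 difference of CD45+ cells from ventricle was 8.51, smaller than the bound, and that of CD45- from CD45+ cells was -6.13. Passage-8 cells were well above background on 1 of 2 arrays. By the same rule their mean was at least 1561-fold below CD45+ cells, again a bound on the mean and not on each array. The log2 difference as read was -11.72 (SE 2.11), or -10.37 and -13.07 without passage-8 replicate 1 and 2. Passage-8 cells and left ventricle, next to each other at the bottom of the order, did not differ beyond their spread, and the arrays of CD45- and passage-8 cells overlapped.

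Rgs18, known from platelets and megakaryocytes, read 0.64 and 0.71 in CD45+ cells and -3.16 and -3.18 in left ventricle. It was not well above background on any array of CD45- cells (-6.75 and -4.94) or passage-8 cells (-7.42 and -6.57). Relative to CD45+ cells it was at least 35.5-fold lower in CD45- and at least 79.9-fold lower in passage-8 cells, and left ventricle was 14.4-fold lower (log2 difference of CD45+ cells from ventricle 3.85, SE 0.61). Relative to left ventricle the bounds were smaller, at least 2.46-fold lower in CD45- and at least 5.55-fold lower in passage-8 cells. After normexp correction these log2 differences were -2.96 and -4.22 from CD45+ cells and -0.16 and -1.41 from ventricle, all smaller than the bounds, and CD45+ cells stood 2.81 above ventricle.

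Rgs10, which acts on Gi subunits and is abundant in macrophages and microglia, read 5.31 and 5.34 in CD45+ cells, 3.42 and 3.39 in passage-8 cells, 2.40 and 2.20 in CD45- cells and 1.79 and 1.23 in left ventricle. No 2 groups overlapped, and it was well above background on all 8 arrays. CD45+ cells were 8.12-fold above CD45- cells (log2 difference of the latter -3.02, SE 0.25), 3.78-fold above passage-8 cells and 14.1-fold above left ventricle. Unlike Rgs1, it was higher in passage-8 than in CD45- cells, by 2.15-fold (log2 difference 1.10, SE 0.25). CD45- cells and left ventricle were the closest neighbours, 0.79 log2 units apart.

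Rgs2, which acts mainly on Gq and is known for limiting contraction and growth signals in muscle, read 5.45 and 5.34 in CD45+ cells, 4.31 and 5.04 in left ventricle, 3.48 and 2.91 in CD45- cells and 0.85 and 1.04 in passage-8 cells. The 4 groups did not overlap, and the order ran from CD45+ cells through left ventricle and CD45- cells to passage-8 cells. Passage-8 cells were 21.9-fold below CD45+ cells (log2 difference -4.45, SE 0.33), 4.77-fold below CD45- cells and 13.3-fold below left ventricle. CD45- cells were 4.59-fold below CD45+ cells and 2.79-fold below left ventricle. The difference between CD45+ cells and left ventricle was 0.72 (SE 0.33), the smallest between neighbours in the order. The other Rgs2 probe, dimmer throughout, kept this order, at -1.75 and -2.04, -2.19 and -2.48, -4.24 and -4.87, and -6.17 and -6.93 in the same sequence of groups, with passage-8 cells at least 13.4-fold below CD45+ cells.

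Markers of macrophages were also highest in CD45+ cells, where these 4 genes were. The summed signal of 10 macrophage markers, in multiples of the 75th percentile of the array, was 1005 to 1023 in CD45+ cells, 37.3 to 46.6 in left ventricle, 6.10 to 6.17 in passage-8 cells, and 3.56 and 36.7 on the first and second CD45- arrays, the same array on which Rgs1 was well above background having the higher sum. All 10 were well above background on both arrays in CD45+ cells, 9 in left ventricle, 8 in CD45- and 7 in passage-8 cells, where Adgre1 and C1qa were not well above background on either array. The summed signal of 7 platelet and megakaryocyte markers was 169 to 175 in CD45+ cells, 2.84 to 7.11 in CD45- cells, 1.03 to 1.23 in passage-8 cells and 5.37 to 12.6 in left ventricle, while Gp1ba, Gp9 and Gp6, which make platelet surface receptors, were not well above background on any CD45+ array. Pf4, a platelet chemokine, carried nearly all of that CD45+ sum, at 7.45 and 7.40, and Itga2b, the platelet integrin, was instead highest in passage-8 cells (-0.34 and -0.20, against -4.13 and -4.68 in CD45+ cells). The part of either list in the levels of Rgs1, Rgs2, Rgs10 and Rgs18 was not tested, and in bulk RNA fewer cells of a type and less RNA per cell cannot be told apart.

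Of the 10 genes, 6 lie on chromosome 1, by the probe coordinates in build mm9. In the RefSeq gene order Rgs2, Rgs13, Rgs1, Rgs21 and Rgs18 follow each other with 0 protein-coding genes between them, Rgs8 is next to Rgs16, and Rgs5 is next to Rgs4. In the run from Rgs2 to Rgs18, Rgs2, Rgs1 and Rgs18 were highest in CD45+ cells, with Rgs2 also high in left ventricle. Rgs13 was well above background on 1 array alone, the second CD45- array (-2.20, against -6.16 or below on each of the others). Rgs21 was highest in CD45+ cells as well (-1.69 ± 0.13, SD, n = 2), and Rgs8 was well above background on 1 CD45+ array. Rgs16, next to Rgs8, is described with Rgs19 below, and the neighbours Rgs4 and Rgs5, both high in left ventricle alone, after them.

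Promoter windows of 250 bases before the gene start, credited to RefSeq in build GRCm38.p6, were found for 8 of the 10 genes, in 11 windows; Rgs1 and Rgs18 were not among them. They were searched on both strands for AGGAAGT (the core of ETS factors such as PU.1), TGANTCA (AP-1), TGACG (a cyclic AMP response half-site), AGATAA (the letters that GATA factors read), TATAAA, the CArG box and the kappaB site, which can overlap each other. Of 32841 windows of the same length in the table, 7.69% held the ETS core, 6.75% AP-1, 17.8% the cyclic AMP half-site, 9.99% the GATA letters, 12.4% TATAAA, 1.47% a CArG box and 7.25% a kappaB site. The windows of Rgs2 and Rgs10 are printed because these genes lead in CD45+ cells, 5′ to 3′ on the gene's strand and with the matched letters in capitals.
Rgs2, chr1:144004150-144004399, minus strand: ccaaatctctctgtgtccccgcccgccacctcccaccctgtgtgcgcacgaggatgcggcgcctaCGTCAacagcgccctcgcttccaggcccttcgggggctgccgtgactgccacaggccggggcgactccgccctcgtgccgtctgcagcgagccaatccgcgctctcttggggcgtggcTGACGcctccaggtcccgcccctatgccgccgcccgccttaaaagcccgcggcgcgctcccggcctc
Rgs10, chr7:128418173-128418422, minus strand: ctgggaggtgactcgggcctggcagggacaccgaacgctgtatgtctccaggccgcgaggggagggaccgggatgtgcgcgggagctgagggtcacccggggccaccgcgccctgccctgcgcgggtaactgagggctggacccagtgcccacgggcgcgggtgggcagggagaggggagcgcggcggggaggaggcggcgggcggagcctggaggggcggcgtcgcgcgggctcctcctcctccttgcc
Rgs2 held the cyclic AMP half-site at 2 places, which end 180 and 62 bases before the gene start, and Rgs10 held none of the 7 motifs. Both windows were rich in G and C, at 72.4% and 76.4% against a median of 52.4% over all windows. A match describes letters in this window and not a bound site.

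Rgs16, a regulator of Gi and Gq that is known as a gene induced by stimulation in many cell types, read 2.51 and 3.15 in CD45- cells, 1.78 and 1.89 in CD45+ cells, 1.85 and 1.90 in passage-8 cells and -2.47 and -3.04 for left ventricle. All 6 cell arrays stood above both ventricle arrays. The cells exceeded ventricle by 48.0-fold, 24.1-fold and 24.8-fold in the CD45-, CD45+ and passage-8 groups (log2 differences 5.59, 4.59 and 4.63, SE 0.31, or 4.68, 3.83 and 3.88 after normexp correction). CD45+ and passage-8 cells overlapped and did not differ beyond their spread, and CD45- cells stood about 1 log2 unit above either, at 0.99 above CD45+ and 0.96 above passage-8 cells.

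Rgs19, also called GAIP, which acts on Gi subunits, read 3.23 and 2.68 in CD45- cells, 3.73 and 3.78 in CD45+ cells, 3.07 and 3.07 in passage-8 cells and 1.10 and 0.77 for left ventricle. It too was higher in the cells, by 4.07-fold, 7.08-fold and 4.39-fold (log2 differences 2.02, 2.82 and 2.14, SE 0.26). All 3 of its probes were well above background on every array and placed all 6 cell arrays above both ventricle arrays, with folds for the others of 3.21 and 2.60 in CD45-, 5.27 and 6.43 in CD45+ and 3.40 and 4.35 in passage-8 cells. CD45- and passage-8 cells overlapped on the leading probe. The summed signal of 8 fibroblast and mesenchymal markers was also higher in the cells than in ventricle, at 1469 to 1562 in CD45-, 612 to 639 in CD45+ and 1057 to 1064 in passage-8 cells against 280.2 to 429 in left ventricle, with all 8 well above background in every group. Its part in the levels of Rgs16 and Rgs19 was not tested. In the promoter search, 2 of the 3 Rgs19 windows, which overlap each other, held the ETS core, and the Rgs16 window held none of the motifs.

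Rgs4, an inhibitor of Gi and Gq signals, read 0.40 and 0.33 in left ventricle, -2.92 and -4.68 in CD45- cells, -5.51 and -5.21 in CD45+ cells and -5.64 and -5.40 in passage-8 cells. It was well above background on both ventricle arrays, on 1 CD45- and 1 CD45+ array, and on neither passage-8 array. With dim arrays at the faintest signal that counts as well above background, the group means were lower by at least 15.8-fold (CD45-) and 48.1-fold (CD45+). Both passage-8 arrays read above that faintest signal without counting as well above background. The 59.0-fold by which passage-8 cells were lower is thus the fold as read and not a bound. As read, the log2 difference was -4.16 in CD45- cells (SE 0.56) and -5.73 in CD45+ cells. Without CD45- replicate 1 and 2 the former was -5.04 and -3.28. The second Rgs4 probe read 0.26 and 0.27 in left ventricle and between -6.83 and -3.77 on the cell arrays. It put the mean of the CD45- arrays at least 19.8-fold and CD45+ cells at least 49.0-fold lower. After normexp correction the leading probe was lower in the cells by smaller amounts, with log2 differences of -2.34, -3.69 and -3.90 in CD45-, CD45+ and passage-8 cells.

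Rgs5, a marker of pericytes and of arterial smooth muscle, read 4.87 and 4.94 in left ventricle. None of the 6 cell arrays was well above background, at -6.90 and -4.67, -7.92 and -6.50, and -5.84 and -5.28 for CD45-, CD45+ and passage-8 cells. The cells were therefore at least 664-fold, 1222-fold and 1381-fold lower, and their order among themselves is not known. After normexp correction the log2 differences were -7.36, -8.60 and -8.45, each smaller than its bound. The summed signal of 11 smooth muscle and pericyte markers did not move the same way, at 154 to 198 in left ventricle, 268 to 282 in CD45-, 155 to 156 in CD45+ and 234 to 236 in passage-8 cells. Myh11, the smooth muscle myosin, and Kcnj8, a pericyte potassium channel subunit, were not well above background on any cell array, and all 11 were on both ventricle arrays. The summed signal of 8 cardiomyocyte markers was 3234 to 3907 in left ventricle and at most 6.06 in the cells, and that of 7 endothelial markers was 48.2 to 62.4 in left ventricle and 6.81 to 20.6 in the cells, where Emcn and Cldn5 were not well above background on any CD45- or passage-8 array. The part of these lists in the ventricle levels of Rgs4 and Rgs5 was not tested.

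The promoter windows of the neighbours Rgs4 and Rgs5 are shown because both genes were high in left ventricle alone.
Rgs4, chr1:169747643-169747892, minus strand: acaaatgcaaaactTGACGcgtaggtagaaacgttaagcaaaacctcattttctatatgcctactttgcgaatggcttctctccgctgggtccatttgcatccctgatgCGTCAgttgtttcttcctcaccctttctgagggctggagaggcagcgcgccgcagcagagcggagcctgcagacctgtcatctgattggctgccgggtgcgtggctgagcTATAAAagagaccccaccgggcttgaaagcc
Rgs5, chr1:169655251-169655500, plus strand: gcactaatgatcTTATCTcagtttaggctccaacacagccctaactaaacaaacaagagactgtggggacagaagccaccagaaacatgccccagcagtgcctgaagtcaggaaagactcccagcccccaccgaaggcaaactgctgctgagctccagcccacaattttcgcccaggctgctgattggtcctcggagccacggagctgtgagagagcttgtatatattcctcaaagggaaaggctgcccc
Rgs4 held TATAAA, ending 25 bases before the gene start, and the cyclic AMP half-site at 2 places, ending 231 and 136 bases before it. Rgs5 held 1 match, to the GATA letters on the minus strand of the gene, 232 bases before the start, and neither window held a CArG box or shared a motif with the other.

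Rgs6, the R7 regulator that pairs with Gnb5 and acts on Gi and Go subunits, has 3 probes, and Rgs3, which acts on Gi and Gq and is made in long and short forms, has 4. Their first 30 of 60 bases are shown, with the position of the whole probe in build mm9, since probes of these genes did not give the same picture. No letter is in capitals because no part of a probe is singled out.
Rgs6 probe A_55_P2111114, chr12:84193105-84193164: gggaagacgctgctgcctcaacttgtctcc
Rgs6 probe A_55_P2161140, chr12:84234671-84234730: cagctatgcccgcttcctacggtccaacgc
Rgs6 probe A_52_P325237, chr12:84259211-84259270: attctcaacaagggtccatttctaacttgg
Rgs3 probe A_55_P2027117, chr4:62320777-62320836: ggagctggaattatacagaccttctgagaa
Rgs3 probe A_55_P2027112, chr4:62358833-62358892: ttaggtttcctcaaactttcagtcttgagg
Rgs3 probe A_55_P2027107, chr4:62363208-62363267: taccctcgcttcctccgctctgacctctac
Rgs3 probe A_55_P2027102, chr4:62363993-62364052: gccctctggccacacagaaatgagtgctga
Rgs6 probe A_55_P2111114 and Rgs3 probe A_55_P2027112 carry Ensembl transcript names in the array design, and the others carry RefSeq transcript names.

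The Rgs6 probe with the highest mean, A_55_P2111114, was dim and flat, with all 8 arrays between -4.67 and -3.75, and no neighbours in its order differed beyond their spread. The other Rgs6 probes separated ventricle from cells. A_52_P325237 read -0.37 and -0.74 in left ventricle and was not well above background on any cell array (-7.72 to -5.86), which puts the cells lower by at least 15.1-fold (CD45-), 27.7-fold (CD45+) and 33.9-fold (passage-8). A_55_P2161140 read -0.87 and -1.29 in left ventricle and -5.47 to -4.60 on the cell arrays, and passage-8 cells, the only cell group well above background on both arrays, were 14.6-fold lower. On both RefSeq probes Rgs6 therefore stood with Rgs4 and Rgs5, whereas its leading probe showed no difference above 0.49 log2 units between any 2 groups.

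For Rgs3, the leading probe A_55_P2027102 read 4.16 and 4.05 in CD45- cells, 3.16 and 3.15 in passage-8 cells, 2.91 and 2.80 in CD45+ cells and 2.98 and 2.81 in left ventricle. CD45- cells stood above the rest, 2.38-fold above CD45+ cells (log2 difference 1.25, SE 0.19) and 2.32-fold above left ventricle, and CD45+ cells and left ventricle overlapped. Probe A_55_P2027107 was nearly flat, with all 8 arrays between 1.12 and 1.37, and A_55_P2027112 was not well above background on any array. Probe A_55_P2027117, which lies nearest the start of the gene among the 4, read 2.03 and 2.54 in left ventricle, -2.28 and -2.21 in CD45- cells, -2.72 and -2.72 in CD45+ cells and -5.77 and -5.99 in passage-8 cells, the last not well above background. On it the cells were lower than ventricle by 23.1-fold, 32.1-fold and at least 243-fold, the opposite of the leading probe for CD45- cells. With the mean of the 4 probes in place of the leading probe, the log2 difference of CD45- cells from left ventricle was -1.12 and not 1.21.

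**Figure D2:**
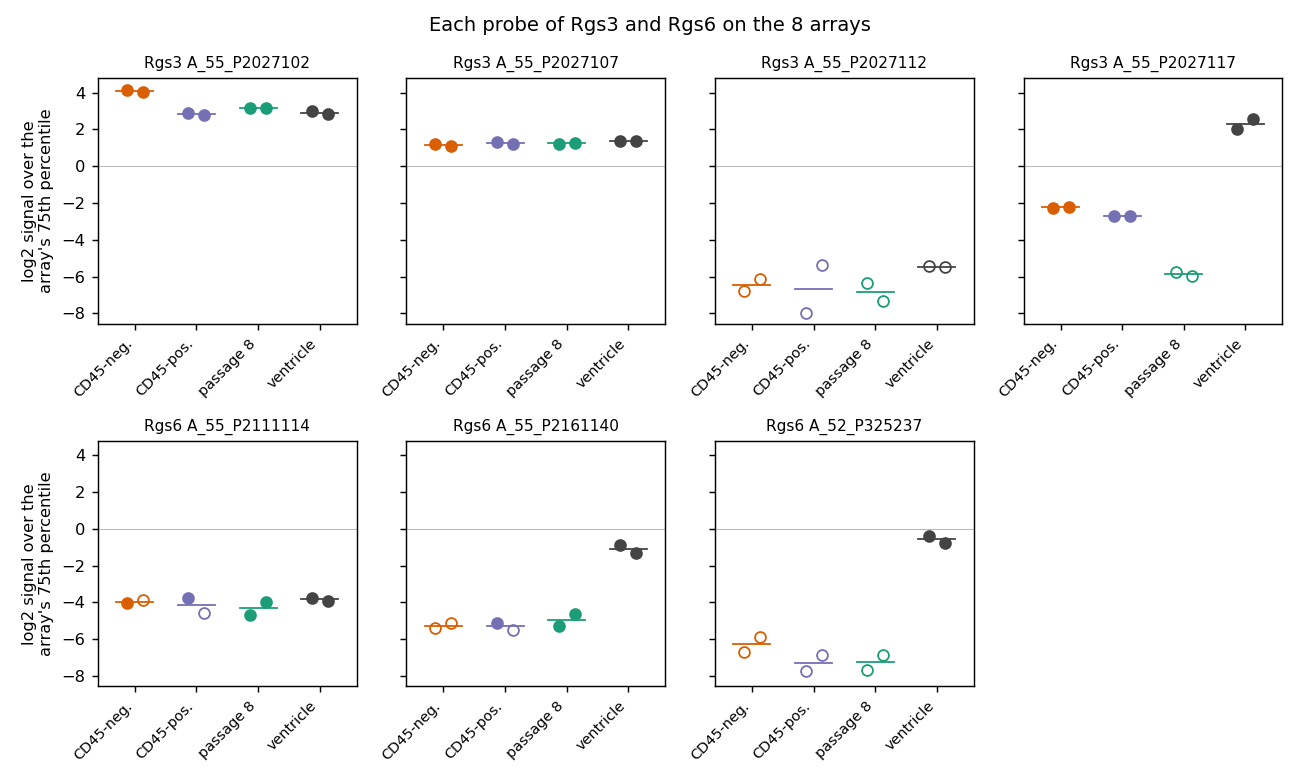
Each panel plots 1 probe of Rgs3 (upper row) or Rgs6 (lower row), as log2 signal over the 75th percentile of the array, for the 2 arrays of each group, with filled points well above background, open points not, and lines at group means. Rgs3 probe A_55_P2027117 and both RefSeq probes of Rgs6 are high in left ventricle alone, while the leading probes of these genes are not.

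The 6 comparisons between groups share arrays and are not independent of each other. Over all genes, a gene was tested where 1 or both of the 2 groups had its leading probe well above background on each array, and passed at an adjusted p under 0.05 with an absolute log2 difference of at least 1. In CD45- against CD45+ cells 5 of the 7 genes tested passed (Rgs1, Rgs2, Rgs10 and Rgs18 lower, Rgs3 higher; Rgs4, Rgs5 and Rgs6 were not tested), where 21.7% of all 21642 genes tested passed. In passage-8 against CD45+ cells 4 of 8 passed, all lower (Rgs1, Rgs2, Rgs10 and Rgs18), where 23.4% of all genes tested did. In passage-8 against CD45- cells 2 of 6 passed, Rgs10 higher and Rgs2 lower, beside 13.8% of all genes. Against left ventricle 7 of 9 passed in CD45- cells (3 higher, 4 lower), 7 of 10 in CD45+ cells (5 higher, 2 lower) and 7 of 9 in passage-8 cells (3 higher, 4 lower), beside 39.4%, 38.0% and 39.1% of all genes. Since the genes were picked with these levels known and some were tested only through the group where they are high, nothing is read from these counts.

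**Figure D3:**
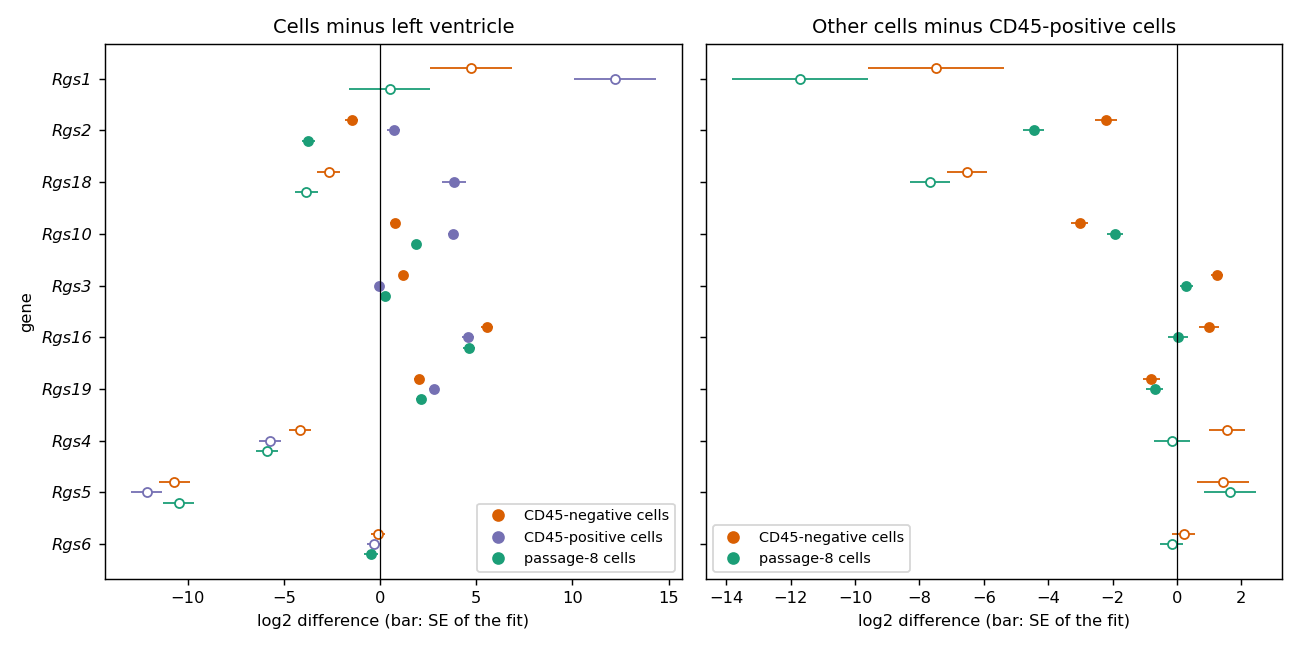
Points are log2 differences of the leading probe for each of the 10 genes, in cells minus left ventricle (left) and in CD45- or passage-8 cells minus CD45+ cells (right), and bars are standard errors of the fit over all 8 arrays. Filled points have both groups well above background on both arrays, and open points do not. Rgs10, Rgs16 and Rgs19 lie right of 0 for all cells against ventricle, as do the open points of Rgs1, and Rgs4 and Rgs5 lie left of it. In the right panel Rgs1, Rgs2, Rgs18, Rgs10 and Rgs19 lie left of 0.

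The genes whose pattern over the 8 arrays was most like each RGS gene were found by Pearson's r among 15472 other genes, which describes 8 arrays in 4 groups and mostly follows the group means. For Rgs1 they were Cd5l, a secreted macrophage protein, and Trav3-4 (r = 0.993 for both), and Cd5l shared the split of the CD45- arrays, with a mean of -1.27 ± 5.04 (SD, n = 2) there against 5.92 ± 0.03 in CD45+ cells. Rgs18 was most like Ptpn18 (0.996), a tyrosine phosphatase, and Otulinl (0.995), and Rgs10 most like M6pr (0.993), the mannose 6-phosphate receptor of lysosomal sorting, and Ifi30 (0.991), a lysosomal reductase of antigen processing. Rgs2 was most like Ston2 and Xlr4d-ps (0.995 for both). Rgs4 was most like Urod (0.998), a heme synthesis enzyme, and Asb13 (0.996), and Rgs5 most like Tppp (0.998) and Cpt1b (0.997), the muscle form of the mitochondrial fatty acid carrier enzyme. Rgs16 was most like Nmt2 (0.997) and the kinase Ripk3 (0.996), Rgs19 most like Mfap3 (0.999) and Emp3 (0.993), and Rgs3 most like Elk3 (0.992) and Nectin3 (0.990). For the flat leading probe of Rgs6 the highest values were lower, 0.935 for Olfr338 and 0.920 for D17H6S53E.

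The rest of the pathway was followed through 102 genes that are not among the 10. They were other RGS genes, the binding proteins Rgs7bp and Rgs9bp, G protein subunits, effectors, receptor kinases and arrestins, and receptors that mostly couple to Gi or Gq. These lists too were chosen with earlier results known. Some genes were tested only through the group where they are high, such as Chrm2, Adora1 and Kcnj3 through left ventricle. The counts, medians and adjusted p given for them therefore describe these lists and are no test of the pathway. In the fit over all genes (limma, Benjamini-Hochberg adjustment) 45 of the 83 tested passed in CD45- against CD45+ cells (17 higher, 28 lower), 55 of 88 in passage-8 against CD45+ cells (16 higher, 39 lower) and 26 of 71 in passage-8 against CD45- cells (8 higher, 18 lower), where 21.7%, 23.4% and 13.8% of all genes tested passed. Their median log2 differences were -0.64, -0.74 and -0.36, beside 0.17, 0.16 and -0.01 over all genes tested. Against left ventricle 46 of 85, 56 of 91 and 55 of 86 passed in CD45-, CD45+ and passage-8 cells, where 39.4%, 38.0% and 39.1% of all genes did, with medians of -0.20, 0.50 and -0.75 beside 0.06, -0.02 and 0.05. The first count rested on both CD45+ arrays, falling to 15 without CD45+ replicate 1 and 9 without CD45+ replicate 2. The second fell to 26, 24 and 35 without CD45+ replicate 1, CD45+ replicate 2 and passage-8 replicate 2, and the third to 13 without passage-8 replicate 1 and 13 without passage-8 replicate 2.

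**Figure D4:**
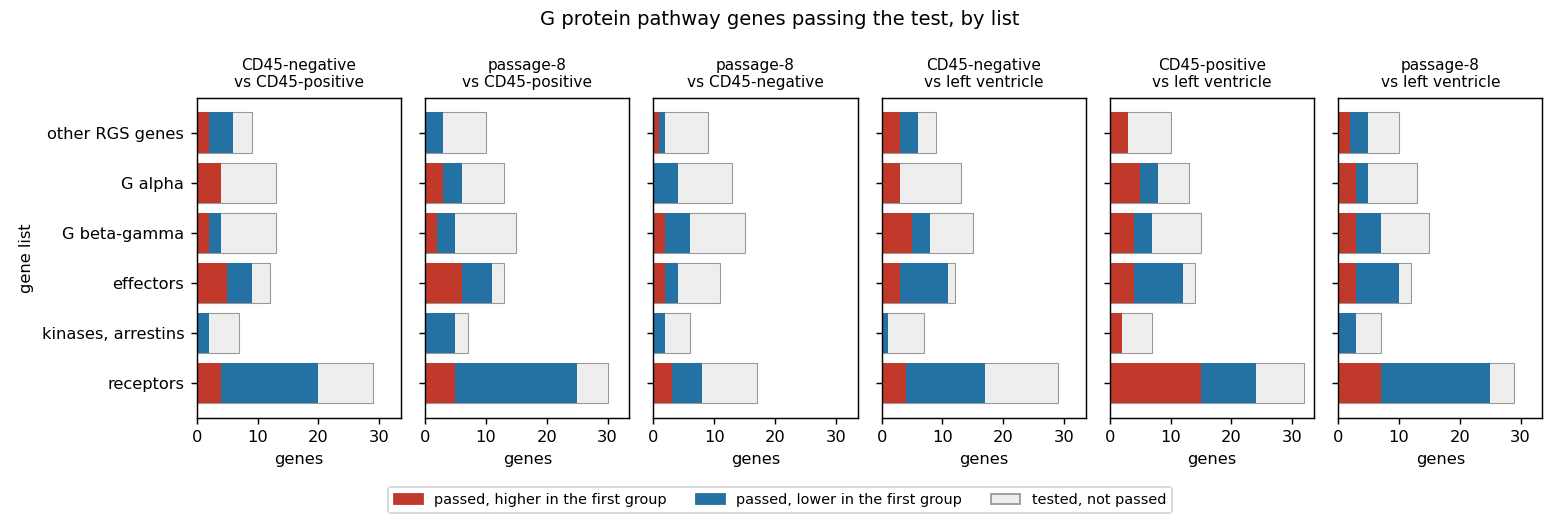
Bars give the number of pathway genes tested in each of 6 lists and 6 comparisons, with those that passed higher in the first group in red, those that passed lower in blue and the rest in grey. Receptors are mostly blue where CD45- or passage-8 cells are set against CD45+ cells (16 and 20 lower), and mostly red for CD45+ cells against ventricle (15 higher).

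The list of 13 other genes holds RGS genes and the binding proteins Rgs7bp and Rgs9bp. In it Rgs14, the R12 relative of Rgs10, was lower than in CD45+ cells by 19.3-fold in CD45- cells (log2 difference -4.27, SE 0.29, adjusted p = 0.00214 in the limma fit) and by 14.8-fold in passage-8 cells (adjusted p = 0.000945 in the limma fit). Its means were 0.61 ± 0.16 in CD45+ cells, -3.66 ± 0.45 in CD45- cells, -2.35 ± 0.02 in left ventricle and -3.28 ± 0.26 in the passage-8 group (SD, n = 2). Rgs11, an R7 gene, was higher than in ventricle in every cell group, by 8.25-fold, 20.6-fold and 20.1-fold in CD45-, CD45+ and passage-8 cells (adjusted p from 0.000248 to 0.00066 in the limma fit). Rgs17, the RZ relative of Rgs19, was instead highest in CD45- cells, 4.38-fold above CD45+ and 5.15-fold above passage-8 cells (adjusted p = 0.0108 and 0.0119 in the limma fit). Rgs7bp, which anchors R7 proteins to the membrane, was not well above background in CD45- or passage-8 cells and was at least 4.77-fold below CD45+ cells in the CD45- group and at least 5.60-fold and 12.6-fold below left ventricle in these groups. Rgs7, an R7 gene like Rgs6, was lower in passage-8 cells than in left ventricle by 4.75-fold (adjusted p = 0.0286 in the limma fit), and at least 3.46-fold lower in CD45- cells. Rgs12 was 2.12-fold higher in CD45- than in CD45+ cells (adjusted p = 0.0311 in the limma fit), and Rgs21 was lower in both other cell groups than in CD45+ cells, by 2.73-fold and 3.20-fold (adjusted p = 0.0305 and 0.0181 in the limma fit). In all, 6 of 9 tested passed in CD45- against CD45+ cells (2 higher, 4 lower), 3 of 10 in passage-8 against CD45+ cells, all lower, and 2 of 9 in passage-8 against CD45- cells, Rgs11 higher and Rgs17 lower, beside 21.7%, 23.4% and 13.8% of all genes. The last 2 shares lie near the background, and Rgs7bp, an anchor and not itself an RGS protein, is among the genes behind the first 2 counts. Rgs12, Rgs17 and Rgs21 no longer passed against CD45+ cells when either CD45+ array was left out. Rgs11 and Rgs17 no longer passed in passage-8 against CD45- cells when either passage-8 array was left out. Rgs7bp in CD45- against CD45+ cells was lost without CD45+ replicate 2, and Rgs7 against ventricle without left ventricle replicate 1 in both groups. In passage-8 cells Rgs7 was also lost when either CD45+ array, passage-8 replicate 1 or left ventricle replicate 2 was left out.

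Among the G alpha subunits, on which RGS proteins act, Gnai2, the main Gi subunit of blood cells, read 6.55 ± 0.03 in CD45+ cells, 6.31 ± 0.06 in CD45- cells, 5.07 ± 0.11 in left ventricle and 5.31 ± 0.03 in the passage-8 group (SD, n = 2), and was 2.36-fold lower in passage-8 than in CD45+ cells (adjusted p = 0.00727 in the limma fit). Gnai3 was higher than in ventricle in all 3 cell groups, by 4.59-fold, 3.66-fold and 4.13-fold. Gnao1, the Go subunit, was higher in CD45- than in CD45+ cells by 8.87-fold and lower in passage-8 cells than in either primary group, by 35.8-fold against CD45- and 4.04-fold against CD45+ cells (adjusted p from 0.00187 to 0.0163 in the limma fit). Of 13 G alpha genes tested, 4 passed in CD45- against CD45+ cells, all higher (Gna11, Gnai1, Gnao1 and Gnaz), and 6 in passage-8 against CD45+ cells (3 higher, 3 lower), where 21.7% and 23.4% of all genes tested passed. The first of these counts is near the background. Gna11, Gnai1 and Gnaz did not pass when either CD45+ array was left out, nor Gnao1 without CD45+ replicate 2. Gnai2 and Gnao1 in passage-8 against CD45+ cells each needed all 4 arrays of these groups to pass.

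Among the beta and gamma subunits, Gngt2 read 4.66 in the mean of CD45+ cells and 2.97 in left ventricle, was 56.0-fold lower in CD45- and 517-fold lower in passage-8 cells than in CD45+ cells (adjusted p = 0.00538 and 0.00119 in the limma fit), and Gng2 was 7.98-fold and 33.6-fold lower. The CD45- arrays of Gngt2 were split, at -2.32 and 0.03, so its log2 difference of -5.81 from CD45+ cells was -4.63 without CD45- replicate 1 and -6.98 without CD45- replicate 2. That call was lost without CD45+ replicate 2. Gng2 in CD45- cells did not pass when either CD45+ array was left out. Gnb5, the partner of Rgs6 and the other R7 proteins, passed in none of the 6 comparisons (limma, log2 differences from -0.77 to 1.17, lowest adjusted p = 0.0692), with means from -0.29 in CD45+ to 0.88 in CD45- cells. In CD45- against CD45+ cells 4 of 13 beta and gamma genes passed (2 higher, 2 lower), and in passage-8 against CD45+ cells 5 of 15 (2 higher, 3 lower), shares near the 21.7% and 23.4% of all genes tested.

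Most effectors tested passed against ventricle. Kcnj5 and Kcnj3, subunits of the potassium channel that beta-gamma opens in heart muscle, read 3.10 ± 0.31 and -1.47 ± 0.10 (SD, n = 2) in left ventricle. Kcnj3 was not well above background on any cell array and was at least 7.97-fold, 14.7-fold and 17.9-fold lower in CD45-, CD45+ and passage-8 cells. Kcnj5 was at least 189-fold and 348-fold lower in CD45- and CD45+ cells and 210-fold lower in passage-8 cells. Of the adenylyl cyclases, which make cyclic AMP, Adcy7 and Adcy3 were higher in both primary groups than in ventricle, by 9.25-fold and 2.81-fold in CD45- and 9.78-fold and 11.9-fold in CD45+ cells, while Adcy4, Adcy5 and Adcy6 were among those lower in all 3 cell groups. Of the effectors, 11 of 12 tested passed in CD45- cells against ventricle (3 higher, 8 lower), 12 of 14 in CD45+ cells (4 higher, 8 lower) and 10 of 12 in passage-8 cells (3 higher, 7 lower), beside 39.4%, 38.0% and 39.1% of all genes. Adcy5 no longer passed in any cell group without left ventricle replicate 1. Adcy4 in CD45- cells no longer passed when any 1 of the CD45-, CD45+ and ventricle arrays was left out.

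Arrestins, which uncouple receptors that kinases have phosphorylated, were higher in CD45+ cells than in passage-8 cells or ventricle. Arrb2 was lower by 16.5-fold in CD45- and 22.04-fold in passage-8 cells (adjusted p = 0.00451 and 0.00234 in the limma fit), and Arrb1 was lower in passage-8 cells by 13.3-fold. Against ventricle both were higher in CD45+ cells, Arrb2 by 13.2-fold and Arrb1 by 3.08-fold. Grk5, a receptor kinase, was lower in passage-8 cells than in CD45+ cells by 4.24-fold and than in ventricle by 5.54-fold (adjusted p = 0.0103 and 0.00304 in the limma fit). Of 7 kinases and arrestins tested, 2 passed in CD45- against CD45+ cells and 5 in passage-8 against CD45+ cells, all lower, beside 21.7% and 23.4% of all genes. Grk5 did not pass against CD45+ cells when either CD45+ array or passage-8 replicate 2 was left out.

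Among the receptors, in CD45- against CD45+ cells 20 of 29 passed (4 higher, 16 lower), and in passage-8 against CD45+ cells 25 of 30 (5 higher, 20 lower), the lower ones including the chemokine receptors Ccr1, Cxcr4 and Cx3cr1 and the nucleotide receptor P2ry6, where 21.7% and 23.4% of all genes tested passed. Cxcr4 and Cx3cr1 no longer passed in CD45- cells when either CD45+ array was left out. P2ry6 was 16.0-fold and 39.0-fold lower (adjusted p = 0.00214 and 0.000409 in the limma fit). Ednra, the endothelin A receptor, was higher in CD45- than in CD45+ cells by 22.5-fold (adjusted p = 0.00214 in the limma fit) and was highest in left ventricle, at 3.39 ± 0.36 (SD, n = 2). Chrm2 and Adora1, the muscarinic and adenosine receptors that slow the heart through Gi, were not well above background on any cell array. They were at least 35.3-fold and 14.6-fold lower in CD45-, 64.9-fold and 26.8-fold lower in CD45+ and 79.4-fold and 32.8-fold lower in passage-8 cells than in left ventricle. S1pr1, a sphingosine phosphate receptor, was lower in passage-8 cells than in either primary group, by 35.1-fold against CD45+ and 20.7-fold against CD45- cells (adjusted p = 0.00127 and 0.00371 in the limma fit). The macrophage marker sum given above moved with the chemokine receptors and Arrb2, the cardiomyocyte sum with Chrm2, Adora1, Kcnj3 and Kcnj5, and the part of either in these differences was not tested.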

How the data were processed

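Total RNA of 8 samples, 2 in each of 4 groups, was labelled with Cy3, 200 ng each per the labels' protocols. Spot intensity was taken from the deposited scanner output (Agilent Feature Extraction 10.7 in the submitters' processing notes), after background subtraction per the file headers and with no scaling between arrays. A deposited table of log2 values by the authors served as an alternative; the sources used here do not say how it was made. All 8 arrays share 1 slide and 1 scan date.

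The 3671 control spots of 62976 were left out, and no spot was saturated. Each array had 167 to 248 outlier spots. They were left out of a probe's mean unless every spot of that probe was an outlier on the array. The 75th percentile was taken over all spots that were not controls, outliers included. Spots of a probe were averaged, and the processed signal was divided by the 75th percentile of its array before log2. A gene took its leading probe, the one with the highest mean over 8 arrays. All 8 arrays were fitted with limma 3.58.1 in R 4.3.3 with 1 mean per group. Each standard error rests on the gene's spread pooled over the 4 groups (4 residual degrees of freedom). In the limma fit that spread was moderated towards a value estimated from all genes, which gave 5.86 degrees of freedom in total. A gene passed at a two-sided adjusted p under 0.05 (Benjamini-Hochberg within a comparison) if its log2 difference was also 1 or more in size. Arrays number 2 per group, which limits precision. The fit was tested on simulated data.

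The RGS genes and the pathway and marker lists were chosen with earlier results of these data known. The rule for naming took every one of the 10 genes and, from each pathway list and comparison, up to 3 genes per direction that passed with the largest difference among those well above background on all 4 arrays, and the members behind counts of 5 or fewer. Rgs7bp, Rgs8, Rgs13, Kcnj3, Chrm2, Adora1, Gnb5, Pf4, Itga2b and the chemokine receptors were named after their values were seen, for their part in the pathway or a marker sum or for their position. For each of the 10 genes the 2 genes of highest Pearson's r are named. Probe positions are given in build mm9, as in the files, and promoters are RefSeq windows in build GRCm38.p6. Of the array's probes, 27235 matched a RefSeq gene, which updated 2838 symbols. Alternatives covered normalization, background correction, the filter on dim probes, probes per gene, the arrays in the fit, the replicate block and leaving out each array.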

Additional observations from a re-analysis of the deposited data

How the results depend on the processing

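Of the differences of the 10 RGS genes that passed, 1 turned its direction under an alternative: Rgs3 in CD45- cells against left ventricle was -1.12 with the mean of all probes. The background correction set the size of differences that involve dim probes. With normexp, Rgs5 was lower than ventricle by a log2 difference of -7.36, -8.60 and -8.45 in CD45-, CD45+ and passage-8 cells in place of -10.69, -12.12 and -10.47, Rgs1 in CD45+ cells against ventricle was 8.51 in place of 12.22, and Rgs18 in CD45- cells against ventricle was -0.16 in place of -2.67. With the authors' value table that last value was -1.27. Fitting only the arrays of the 2 groups compared left 1951 genes and 27 pathway genes passing in CD45- against CD45+ cells, where 4690 and 45 passed with all arrays, and 181 and 4 in passage-8 against CD45- cells, where 3160 and 26 did. Leaving out 1 array at a time gave 814 to 6029 genes and 9 to 53 pathway genes in CD45- against CD45+ cells, 2195 to 6336 and 24 to 60 in passage-8 against CD45+ cells (5512 and 55 with all arrays), 859 to 5191 and 13 to 36 in passage-8 against CD45- cells, and 5658 to 9413 genes in CD45+ cells against ventricle (8821 with all arrays). The other counts under the alternatives run stayed within 1.5 times. Shared replicate numbers equal the row of the array on its slide, and deviations of same-numbered arrays correlated between -0.169 and 0.165 over 18087 genes, so the numbers were not taken to pair samples. With the replicate block 4357 genes passed in CD45- against CD45+ cells, and 45 pathway genes. Probes not well above background set a limit: a difference below it has a bound and no size.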
